A study of Homo sapiens with 6 samples.

Results

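The nuclear-encoded subunits of the respiratory chain and of ATP synthase were followed in HK-2 cells, an immortalised line of human kidney proximal tubule epithelium, with and without the growth factor GDF5. Members were taken by gene symbol: the NDUFA, NDUFB, NDUFC, NDUFS and NDUFV genes, SDHA to SDHD, the UQCR genes, the COX4 to COX8 genes, the ATP5F1, ATP5M and ATP5P genes, and CYC1 and CYCS. After 38 pseudogenes were dropped, 84 of the 34157 genes in the table were members. By complex there were 36 genes of complex I, 4 of complex II, 10 of complex III, 15 of complex IV, 18 of complex V and the cytochrome c gene CYCS. CYC1 was placed in complex III and NDUFA4 in complex IV, where their proteins are found. COX4I2 and COX8C were not analysed here. The study sequenced RNA from 3 libraries of control HK-2 cells and 3 libraries of HK-2 cells given GDF5, a ligand of the bone morphogenetic protein (BMP) family, at 100 ng/ml for 48 hours. Both groups are 1 cell line with no genetic change stated, and the labels do not say what the control cells received. Nor is it stated that replicate libraries were grown as separate cultures. The p-values therefore rest on library-to-library spread, part or all of which may be technical.

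Complexes I to IV lie in the inner mitochondrial membrane and pass electrons from NADH and succinate through ubiquinone and cytochrome c to oxygen. Complexes I, III and IV pump protons as they do so, and complex V, the ATP synthase, uses the returning protons to make ATP. Complexes I, III, IV and V each join subunits made from nuclear genes to subunits made from mitochondrial DNA, whereas complex II and cytochrome c are made from nuclear genes alone. Proximal tubule cells in the kidney are rich in mitochondria and draw most of their ATP from this chain. Nuclear respiratory factor 1 (NRF1), the ETS factor GABPA, YY1 and CREB1 are known to bind promoters of such genes, and NRF1 was first found through the cytochrome c promoter of the rat.

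The stretches of 250 bases before the start of 6 member genes are shown because these genes carry the findings below: CYCS, ATP5PF and ATP5MC1 were the members called higher, and ATP5F1E, NDUFB2 and UQCRQ were among those called lower under each scaling used. The sequences are from RefSeq on GRCh38.p14, 5′ to 3′ on the strand of the gene, and capitals mark exact matches to GCGCATGC (NRF1), CCGGAAG (ETS), AAGATGGC (YY1) or TGACGTCA (cyclic AMP response element, CRE) on either strand. They lie at chr7:25125261-25125510 on the minus strand for CYCS, chr21:25735055-25735304 (minus) for ATP5PF, chr17:48892537-48892786 (plus) for ATP5MC1, chr20:59032336-59032585 (minus) for ATP5F1E, chr7:140696458-140696707 (plus) for NDUFB2 and chr5:132866392-132866641 (plus) for UQCRQ.
CYCS: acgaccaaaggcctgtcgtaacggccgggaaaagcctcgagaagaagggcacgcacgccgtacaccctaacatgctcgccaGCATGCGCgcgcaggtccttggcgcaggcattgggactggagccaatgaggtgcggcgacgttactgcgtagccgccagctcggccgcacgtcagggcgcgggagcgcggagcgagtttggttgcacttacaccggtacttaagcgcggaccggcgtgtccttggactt
ATP5PF: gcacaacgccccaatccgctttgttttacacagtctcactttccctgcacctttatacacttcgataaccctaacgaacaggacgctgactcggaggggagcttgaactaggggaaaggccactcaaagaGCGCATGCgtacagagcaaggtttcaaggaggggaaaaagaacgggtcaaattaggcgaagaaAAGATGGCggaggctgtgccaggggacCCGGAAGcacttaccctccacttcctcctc
ATP5MC1: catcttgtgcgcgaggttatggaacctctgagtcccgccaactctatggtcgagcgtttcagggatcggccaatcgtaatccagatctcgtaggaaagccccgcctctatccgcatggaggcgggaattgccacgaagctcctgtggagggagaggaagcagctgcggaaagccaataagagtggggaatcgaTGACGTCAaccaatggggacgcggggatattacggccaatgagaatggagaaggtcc
ATP5F1E: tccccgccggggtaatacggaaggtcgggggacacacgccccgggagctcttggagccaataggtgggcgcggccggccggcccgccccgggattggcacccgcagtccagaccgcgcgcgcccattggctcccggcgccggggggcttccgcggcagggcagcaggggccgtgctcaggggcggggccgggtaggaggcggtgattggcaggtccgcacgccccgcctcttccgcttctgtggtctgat
NDUFB2: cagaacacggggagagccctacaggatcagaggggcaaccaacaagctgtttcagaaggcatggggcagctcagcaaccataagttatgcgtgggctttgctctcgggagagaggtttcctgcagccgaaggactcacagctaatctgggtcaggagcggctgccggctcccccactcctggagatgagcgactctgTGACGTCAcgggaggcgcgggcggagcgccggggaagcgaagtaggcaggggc
UQCRQ: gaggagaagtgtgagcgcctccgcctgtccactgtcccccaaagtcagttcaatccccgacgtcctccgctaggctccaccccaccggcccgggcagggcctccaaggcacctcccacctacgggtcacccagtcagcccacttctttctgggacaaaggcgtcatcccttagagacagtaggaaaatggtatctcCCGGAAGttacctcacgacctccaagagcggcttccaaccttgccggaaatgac

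Distances are to the RefSeq start used for each stretch. The CYCS stretch held the NRF1 letters on the other strand, 162 bases before the start. The ATP5PF stretch, 1 of 2 listed for that gene, held the NRF1, YY1 and ETS letters, 113, 50 and 24 bases before the start. ATP5MC1 held the CRE letters 50 bases before its start and NDUFB2 held them 46 bases before, while UQCRQ held the ETS letters 48 bases before and ATP5F1E held none of the 4 motifs. No matches overlapped one another in these 6 stretches. Windows running from 250 bases before to 50 bases after the start were found for 67 of the 84 members, 80 windows in all. The NRF1 letters stood in 20.0% of the member windows, against 3.05% of all 35116 windows in the table. The ETS letters stood in 27.5% against 10.3%, the YY1 letters in 16.2% against 2.89%, and the CRE letters in 6.25% against 1.85%. Of the 15 members with the NRF1 letters, CYCS and ATP5PF were called higher, COX5B and COX6A1 were called lower, and the others were not called, or not tested, in the RPKM as deposited. There 7.48% of all tested genes were called higher and 17.5% lower. After the median-of-ratios scaling described below, CYCS, ATP5PF, ATP5MC2 and SDHB were called higher, and COX5B and COX6A1 were not called. With that scaling 12.9% of all tested genes were called higher and 9.96% lower. A match says that the letters are in the window and is a description only.

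The libraries held 43884254 to 56038739 reads assigned to genes. Expression is given as RPKM, in which reads are divided by exon length and by the library's total of reads in genes. The 2 groups were separated along the first principal component (53.6% of the variance). All 5 tested BMP response genes were called higher, with ID2 at 3.37, 3.84 and 3.69 RPKM in control replicates 1 to 3 and 30.7, 30.0 and 29.8 in GDF5 replicates 1 to 3. The epithelial genes EPCAM, KRT8, KRT18 and KRT19 lay between 29.1 and 135 RPKM in every library, whereas the proximal tubule genes LRP2, CUBN, AQP1 and ANPEP were at or near 0, at most 0.0754 RPKM in any library. The summed level of the 5 epithelial markers was 340 ± 10.2 RPKM (SD, n = 3) in controls and 294 ± 12.9 in GDF5 libraries, and 3 of the 5 were called lower. The 9 proximal tubule markers summed to 74.3 ± 5.35 RPKM in controls and 60.5 ± 1.11 in GDF5 libraries, with 2 of the 3 tested called lower. The part of these in the subunit results was not tested. Endothelial and immune markers were below 1 RPKM in every library. The 5 fibroblast markers summed to 77.8 ± 3.31 RPKM in controls and 73.5 ± 2.33 in GDF5 libraries, nearly all of it from DCN and LUM. These passed the test level and were not called, and PDGFRA, PDGFRB and COL1A2 were at 0.124 RPKM or less. Mitochondrial transcripts took 8.27% ± 0.400 of reads in controls and 10.2% ± 0.149 in GDF5 libraries. They are counted in the total that RPKM divides by, so the calls are also given after median-of-ratios scaling, which sets the median gene alike in all libraries.

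Levels of the subunit genes ranged widely within each complex, as the plot of every subunit gene shows. The highest was NDUFS5, an accessory subunit of complex I, at 257, 282 and 274 RPKM in control replicates 1 to 3 and 251, 257 and 261 in GDF5 replicates 1 to 3. ATP5F1B, which encodes the catalytic beta subunit of ATP synthase, followed at 192, 201 and 203 in controls and 203, 187 and 190 with GDF5. Neither was called, and the groups overlapped in both. UQCRH, the hinge protein of complex III, led its complex at 83.6, 94.1 and 87.5 RPKM in controls and 74.7, 83.6 and 78.7 with GDF5. COX6B1, a subunit facing the intermembrane space, led complex IV at 63.2, 65.3 and 69.6 in controls and 62.6, 69.8 and 71.4 with GDF5. SDHC, a membrane anchor, led complex II. Median levels by complex were 7.36 RPKM for complex I, 15.1 for complex II, 14.1 for complex III, 23.6 for complex IV and 16.4 for complex V.

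**Figure D1:**
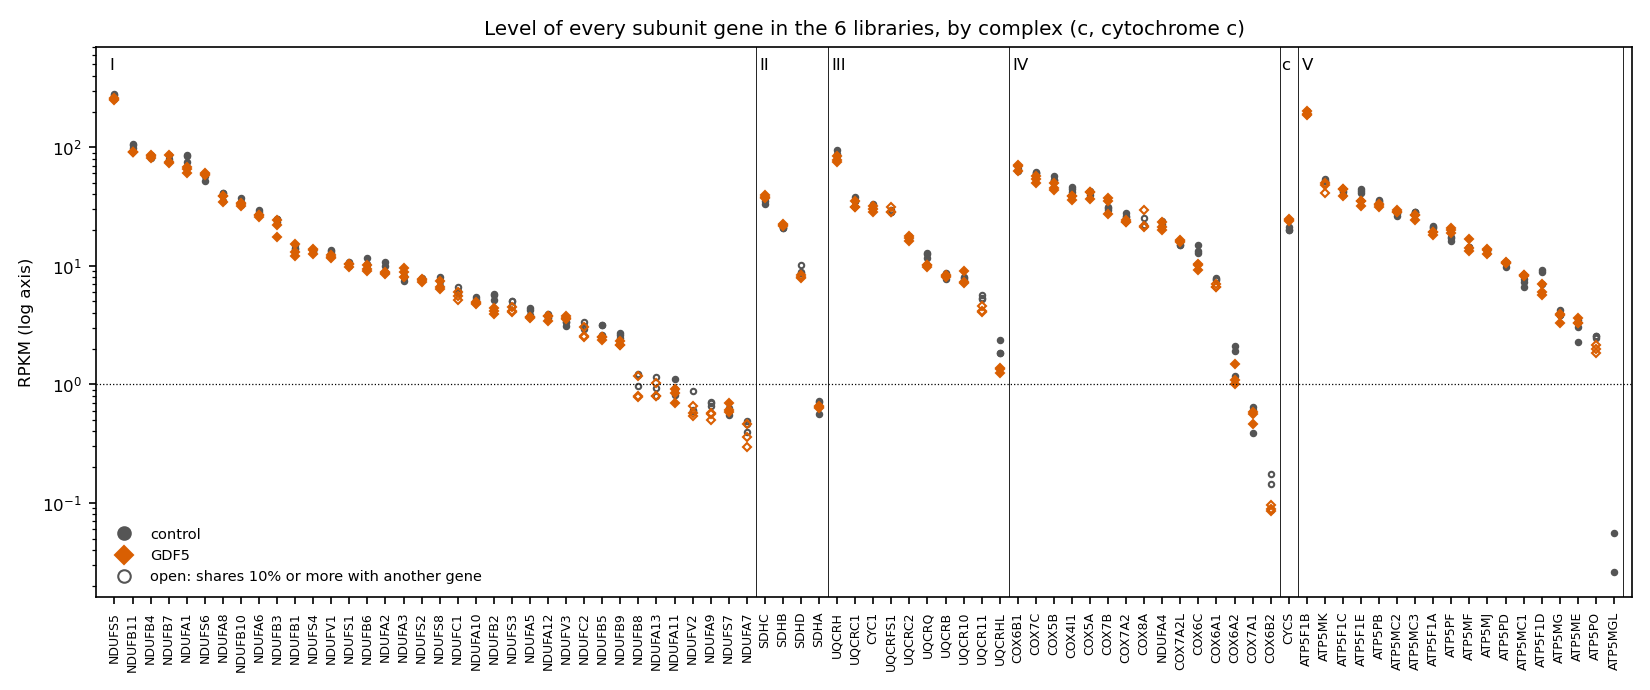
RPKM (log axis) of every subunit gene in the 3 control libraries (grey circles) and the 3 GDF5 libraries (orange diamonds), ordered by level within complexes I to V and cytochrome c. Open symbols mark genes that share at least 10% of their exon bases or sequence windows with another gene, the dotted line is the tested level of 1 RPKM, and values of 0 are not drawn. NDUFS5 and ATP5F1B stand highest, and the 2 groups lie close together for nearly every gene.

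Some low levels belonged to genes whose transcripts are shared with neighbours or copies. Of the 84 members, 16 shared at least 10% of their exon bases or of their 64-base windows with another gene on the same strand or with other transcripts, and their median was 3.74 RPKM against 15.1 RPKM in the other 68. Levels of the 16 ran from 0.112 to 49.6 RPKM. A mean below 1 RPKM was found for 5 of the 16 and for 5 of the other 68. The part of sharing in these levels was not tested. The flavoprotein gene SDHA, the catalytic subunit of complex II, was at 0.730, 0.564 and 0.707 RPKM in controls and 0.631, 0.655 and 0.646 with GDF5, while its partners SDHB, SDHC and SDHD lay between 7.89 and 39.9 RPKM. Part of the SDHA transcript, 5.59% of its windows, also occurs in copies such as SDHAP1, SDHAP2 and SDHAP3, which left SDHA among the other 68. How the authors counted such reads is not given in the sources used here, so these levels are uncertain. RPKM also divides by gene length: NDUFA10 and NDUFB11 had 4943 and 4679 reads per library, but their implied lengths of 19359 and 952 bases set them at 5.06 and 97.2 RPKM. In all, 74 members had a mean of at least 1 RPKM and were tested. The other 10 were NDUFA7, NDUFA9, NDUFA11, NDUFA13, NDUFS7, NDUFV2, SDHA, COX6B2, COX7A1 and ATP5MGL, the last listed at 0 in every GDF5 library.

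The subunit genes moved little and not all one way. With limma on log2(RPKM + 1) and Benjamini-Hochberg adjustment over all 12476 tested genes, 3 members were called higher (4.05% of the 74 tested) and 18 lower (24.3%) at an adjusted p under 0.05. Over all tested genes 7.48% were called higher and 17.5% lower, 25.0% in either direction, which is the background for the members' shares. The median log2 change, GDF5 minus control, was -0.091 over the members and -0.050 over all tested genes, and 53 of the 74 members lay below 0 (44 after median-of-ratios scaling). With a median of -0.050, most of all tested genes also lay below 0 as deposited. Their share below 0 was not counted, so such counts here and by complex have no background beside them. After median-of-ratios scaling 8 members were called higher (10.8%) and 9 lower (12.2%), against 12.9% and 9.96% of all tested genes (22.8% in either direction), and the members' median was -0.036 against 0.0021. Over all genes the split was 933 higher and 2183 lower as deposited and 1606 higher and 1242 lower after this scaling. In the authors' deposited table, 6 of the 84 members were higher and 9 lower at an adjusted p under 0.05. Of its 34156 genes 4.91% were higher and 3.82% lower, 8.73% in either direction. Most of those genes lay below the level of the 12476 tested here, so these shares are not a like background for the members. The control and GDF5 values did not overlap in 39 of the 74 tested members, against 43.9% of all tested genes. In RNA from whole cultures, fewer cells of a kind and less RNA per cell cannot be told apart.

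The calls common to both scalings and the authors' deposited table were CYCS, ATP5PF and ATP5MC1, higher, and COX6C, ATP5F1E, NDUFB2, NDUFA1, UQCRQ and UQCRHL, lower. Of these, CYCS, ATP5PF, COX6C, ATP5F1E, NDUFB2 and UQCRQ stayed under an adjusted p of 0.05 in every limma and limma-voom alternative in which they were tested, leaving out each library included; NDUFB2 was not tested at a mean of at least 5 RPKM. With no filter on level, ATP5MC1 and UQCRHL were not called (limma adjusted p 0.142 and 0.0729). Changes in the called genes lay between -0.43 and 0.25 on the log2 scale as deposited, and those common to both scalings between -0.37 and 0.31 after median-of-ratios scaling.

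**Figure D2:**
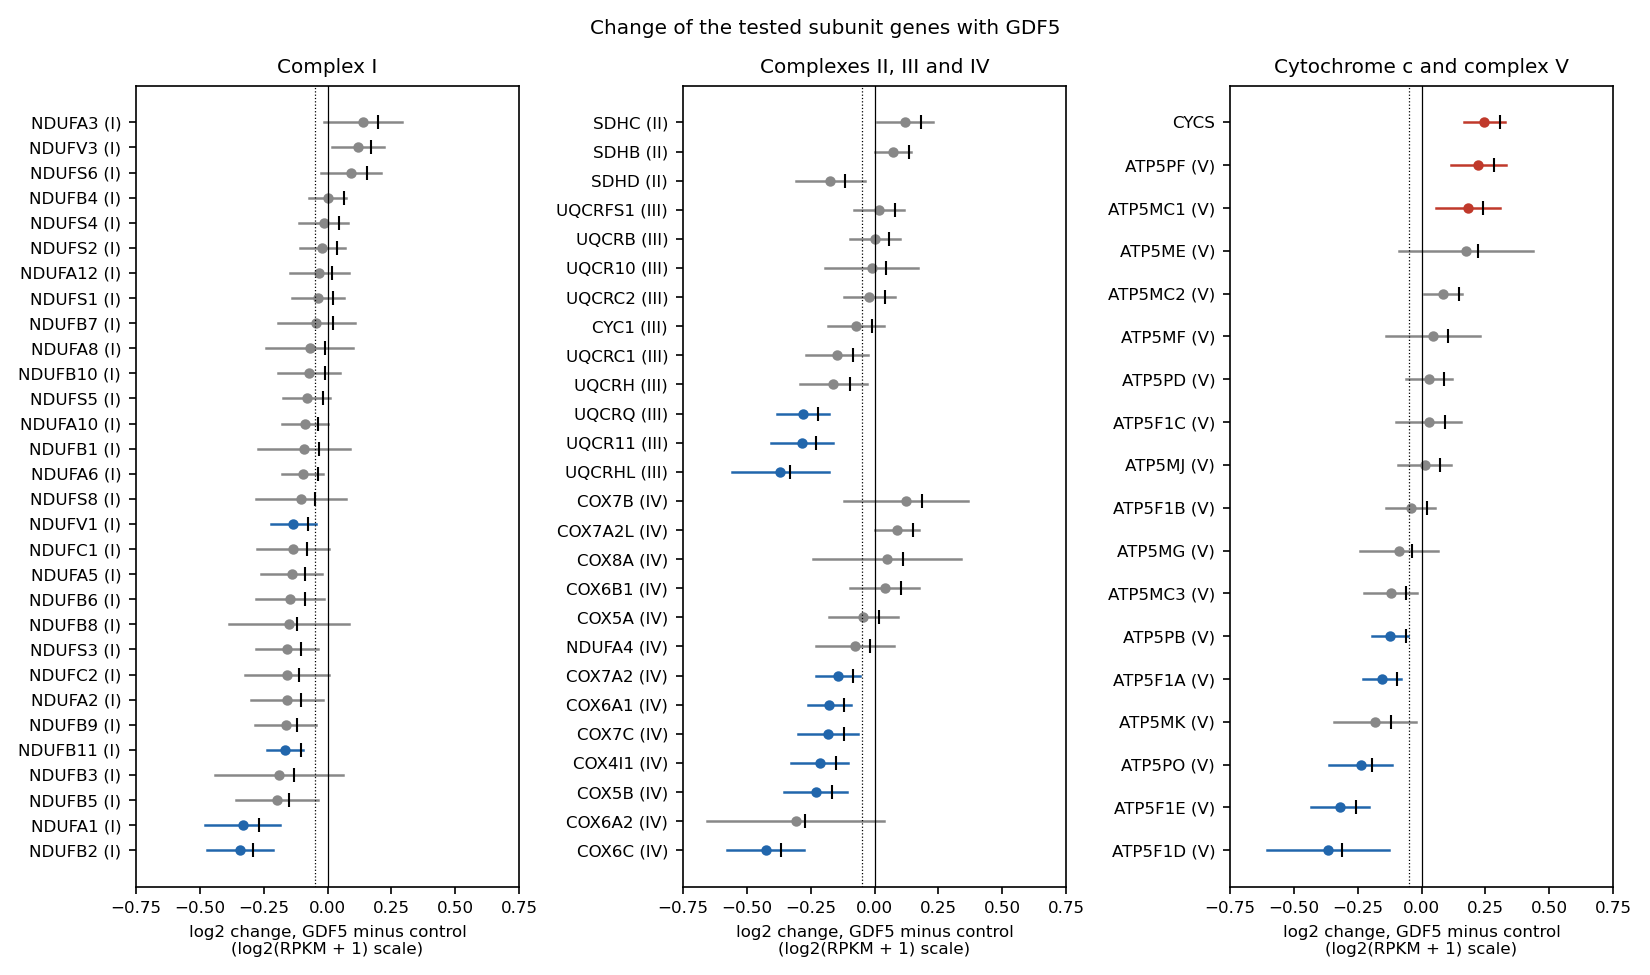
Log2 change, GDF5 minus control, on the log2(RPKM + 1) scale for the 74 tested subunit genes (points), with 95% intervals from limma (bars). Red and blue points are called higher and lower, grey points are not called, black ticks give the change after median-of-ratios scaling, and the dotted line is the median of all tested genes at -0.050. CYCS, ATP5PF and ATP5MC1 lie right of 0 with their whole interval, and COX6C lies farthest left.

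Cytochrome c carries electrons from complex III to complex IV and, when released from mitochondria, takes part in apoptosis. Its gene, CYCS (ENSG00000172115; chromosome 7, 25120091 to 25125361, GRCh38, GENCODE 29), was at 19.9, 21.2 and 20.2 RPKM in control replicates 1 to 3 and 24.9, 24.2 and 24.1 in GDF5 replicates 1 to 3, from a mean of 6563 reads per library. Every GDF5 library was above every control library, and the means rose by 19.4% from 20.4 ± 0.693 RPKM to 24.4 ± 0.457 (SD, n = 3). The log2 change was 0.25 ± 0.034 SE (95% interval 0.17 to 0.33) with a limma adjusted p of 0.00296, and 0.31 with an adjusted p of 0.00146 after median-of-ratios scaling. Over all alternatives the limma adjusted p of CYCS ran from 1.00e-05 to 0.0187. Beside it, HCCS, the enzyme that attaches haem to cytochrome c, went from 18.6, 18.3 and 19.3 RPKM in controls to 20.2, 22.3 and 21.2 with GDF5, without overlap, and was also called higher (log2 change 0.17, limma adjusted p 0.0247). CYC1, the cytochrome c1 of complex III that hands electrons to it, was at 30.8, 30.9 and 33.4 RPKM in controls and 31.6, 28.7 and 30.1 with GDF5, with overlapping groups and a limma adjusted p of 0.294.

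Complex I takes electrons from NADH. Of its 30 tested genes, limma called 0 higher (1 at an unadjusted p under 0.05, and 2 by limma-voom) and 4 lower as deposited, and 26 lay below 0 with a median log2 change of -0.10; after median-of-ratios scaling 1 was higher and 3 lower, 21 lay below 0 and the median was -0.042. The 4 lower genes were 13.3% of those tested, against 17.5% of all genes, and were NDUFB2, NDUFA1, NDUFB11 and NDUFV1. NDUFB2, an accessory subunit of the distal membrane arm (ENSG00000090266; chromosome 7, 140690777 to 140722790), was at 5.18, 5.69 and 5.80 RPKM in control replicates 1 to 3 and 4.42, 4.19 and 3.90 in GDF5 replicates 1 to 3. All GDF5 values were below all control values, and the mean fell by 24.9% (log2 change -0.34, 95% interval -0.47 to -0.21, limma adjusted p 0.00559; 0.0110 after median-of-ratios scaling).

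NDUFA1, a small membrane subunit of complex I encoded on the X chromosome (119871487 to 119876662), was at 86.3, 74.7 and 84.7 RPKM in controls and 61.0, 65.6 and 67.7 with GDF5. The groups did not overlap, and the mean fell by 20.9% (log2 change -0.33, limma adjusted p 0.00993; 0.0197 after median-of-ratios scaling). NDUFB11, a distal membrane arm subunit also on the X chromosome (47142216 to 47145504), stood at 104, 99.3 and 105 RPKM in controls and within a narrow range, 91.2, 91.9 and 91.7, with GDF5. It was called lower as deposited and after scaling (log2 change -0.17, limma adjusted p 0.00883; -0.10 and 0.0423 after median-of-ratios scaling). With that scaling the call was lost without any 1 of 5 libraries, control replicates 1 and 3 and GDF5 replicates 1, 2 and 3, with adjusted p of 0.0657 to 0.126 from limma; that of NDUFA1 was lost without control replicate 1 or 3 or GDF5 replicate 2, at 0.0549 to 0.0651. By GENCODE exons, genes on the opposite strand overlap 44.5% of NDUFA1, 44.9% of NDUFB11 and 35.1% of NDUFB2 exon bases. Whether the counting used strand is not given in the sources used here, so reads of such partners cannot be told apart. For NDUFA1 the length implied by the RPKM was 421 bases against 766 in GENCODE. It was 952 against 1418 for NDUFB11, and 4447 in both for NDUFB2. The overlaps of NDUFA1 and NDUFB11 may therefore not hold for the exons that were counted.

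NDUFV1 is the core subunit that binds NADH and flavin. It was at 12.8, 13.4 and 13.7 RPKM in controls and 12.3, 11.7 and 12.0 with GDF5, without overlap. The mean fell by 9.56%, with a limma adjusted p of 0.0378. The call was lost after median-of-ratios scaling (adjusted p 0.187 from limma) and by limma-voom (0.160), and as deposited without control replicate 2 or 3 or GDF5 replicate 2 or 3 (0.0927 to 0.126). The 7 core subunits with nuclear genes comprised 5 tested ones, all below 0 and 1 of them called as deposited, and 3 below 0 and 0 called after scaling. Of the 11 distal membrane arm genes 10 lay below 0 as deposited and 9 after scaling. Under either, 2 were called lower (18.2%, against 17.5% of all genes as deposited and 9.96% after scaling). Of the 14 other tested accessory genes 11 lay below 0 as deposited and 9 after scaling, with 1 called lower under either. The 26 tested genes not called ranged from -0.20 to 0.14 on the log2 scale. NDUFV3, a flavoprotein accessory subunit chosen after its values were seen, was at 3.36, 3.36 and 3.13 RPKM in controls and 3.54, 3.65 and 3.77 with GDF5. It was not called as deposited (limma adjusted p 0.0877) and was called higher after median-of-ratios scaling (log2 change 0.17, limma adjusted p 0.0329) and by limma-voom (0.0193). After scaling the call was lost without any library but GDF5 replicate 1 (0.0535 to 0.118).

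Complex II, succinate dehydrogenase, links the tricarboxylic acid (TCA) cycle to ubiquinone and has 4 subunits. SDHB, the iron-sulphur subunit, was at 21.3, 20.8 and 20.9 RPKM in control replicates 1 to 3 and 22.0, 21.7 and 22.6 in GDF5 replicates 1 to 3. SDHC, a membrane anchor, was at 35.4, 33.2 and 37.2 in controls and 39.9, 37.8 and 37.5 with GDF5, and SDHD, the other anchor, was at 8.72, 10.2 and 8.87 in controls and 8.03, 8.33 and 7.89 with GDF5. None of the 3 groups of values overlapped: SDHB and SDHC were higher in every GDF5 library, SDHD lower. As deposited, 0 passed the limma threshold (all 3 had an unadjusted p under 0.05, and limma-voom called 2 higher), with adjusted p of 0.114, 0.102 and 0.0676. After median-of-ratios scaling SDHB and SDHC were called higher (log2 changes 0.13 and 0.18, limma adjusted p 0.0173 and 0.0286) and SDHD was not (0.205). With that scaling the SDHB call was lost without control replicate 2 (limma adjusted p 0.0501) or GDF5 replicate 3 (0.0771), and that of SDHC without any library but control replicate 3 (0.0588 to 0.0754). SDHA was below the tested level, with overlapping groups.

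Complex III passes electrons from ubiquinol to cytochrome c. Of its 10 tested genes limma called 0 higher (0 also at an unadjusted p under 0.05 and by limma-voom) and 3 lower under either scaling, and the median log2 change was -0.11 as deposited and -0.047 after scaling. UQCRQ, a small subunit next to cytochrome b (ENSG00000164405; chromosome 5, 132866560 to 132868031), was at 11.6, 12.8 and 12.6 RPKM in controls and 10.2, 9.68 and 10.1 with GDF5. Every GDF5 library was below every control library, and the mean fell by 19.1% (log2 change -0.28, 95% interval -0.38 to -0.18, limma adjusted p 0.00488; 0.0121 after median-of-ratios scaling). UQCR11, the smallest subunit, was at 5.20, 5.31 and 5.71 in controls and 4.56, 4.15 and 4.10 with GDF5, also without overlap (log2 change -0.28, limma adjusted p 0.00854; 0.0185 after median-of-ratios scaling). With that scaling its call was lost without control replicate 3 or GDF5 replicate 2 or 3 (limma adjusted p 0.0556 to 0.0677), and it shares 10.9% of its exon bases with a gene on the same strand.

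UQCRHL, an intronless copy of the hinge protein gene UQCRH, was at 2.37, 1.84 and 1.83 RPKM in controls and 1.35, 1.38 and 1.25 with GDF5, from only 183 reads per library. Control replicate 1 was the highest library, and the groups did not overlap. It was called lower (log2 change -0.37, limma adjusted p 0.0174), which was lost without GDF5 replicate 3 (0.0609) and, after median-of-ratios scaling, without control replicate 1 or GDF5 replicate 2 or 3 (0.0518 to 0.0878). The parent UQCRH lay at 83.6, 94.1 and 87.5 RPKM in controls and 74.7, 83.6 and 78.7 with GDF5, where control replicate 1 and GDF5 replicate 2 nearly met, and was not called (limma adjusted p 0.0751). The copies share sequence, 5.62% of UQCRHL windows and 7.80% of UQCRH windows, so the level of UQCRHL is uncertain. Of the core proteins, UQCRC1 differed by -0.15 on the log2 scale (limma adjusted p 0.0808) and UQCRC2 by -0.021 (0.752). The Rieske iron-sulphur protein gene UQCRFS1 differed by 0.019 (0.767 from limma).

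Complex IV, cytochrome c oxidase, reduces oxygen. As deposited, 6 of its 13 tested genes were called lower (46.2%, against 17.5% of all genes) and 0 higher by limma (1 at an unadjusted p under 0.05, and 1 by limma-voom), with a median log2 change of -0.14. After median-of-ratios scaling 1 was called lower (7.69%, against 9.96%) and 1 higher, with a median of -0.083. Limma-voom called 4 lower, COX6C, COX4I1, COX5B and COX7C, where it called 3611 of the 12476 tested genes in either direction. The authors' deposited table had 3 lower, COX6C, COX4I1 and COX5B. COX6C, a nuclear-encoded structural subunit (ENSG00000164919; chromosome 8, 99873200 to 99894062), was the one called lower both as deposited and after median-of-ratios scaling. It was at 12.8, 14.9 and 13.3 RPKM in control replicates 1 to 3 and 9.25, 10.3 and 10.2 in GDF5 replicates 1 to 3, well separated. The mean fell by 27.5%, from 13.7 ± 1.12 to 9.93 ± 0.585 RPKM (SD, n = 3), with a log2 change of -0.43 ± 0.064 SE (95% interval -0.58 to -0.28, limma adjusted p 0.00419; 0.00785 after median-of-ratios scaling). Over all alternatives the limma adjusted p of COX6C ran from 0.000209 to 0.0245.

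The other 5 genes called lower kept groups that did not overlap, with smaller changes. COX4I1, the ubiquitous form of the largest nuclear subunit, was at 42.1, 44.5 and 46.2 RPKM in controls and 35.9, 39.0 and 39.1 with GDF5 (limma adjusted p 0.0175). COX5B, a zinc-binding subunit on the matrix side, was at 52.8, 57.3 and 53.2 in controls and 49.4, 43.9 and 45.5 with GDF5 (0.0189 from limma). Both lost their calls after median-of-ratios scaling, at limma adjusted p of 0.0535 and 0.0614. Both were called lower by limma-voom (adjusted p 0.00727 and 0.0163) and in the authors' deposited table (0.00674 and 0.0346). COX6A1 was at 7.52, 7.92 and 7.80 RPKM in controls and 6.66, 6.60 and 6.95 with GDF5, COX7A2 at 26.2, 27.6 and 25.6 in controls and 23.6, 24.5 and 23.6 with GDF5, and COX7C, a small membrane subunit, at 61.2, 60.7 and 61.1 in controls and 49.8, 57.5 and 54.0 with GDF5. Their log2 changes were -0.18, -0.14 and -0.18, with limma adjusted p of 0.0136, 0.0276 and 0.0374 as deposited and 0.0507, 0.161 and 0.131 after median-of-ratios scaling. As deposited, the COX4I1 call was lost without control replicate 2 or 3 (limma adjusted p 0.0525 and 0.0516), and that of COX5B without control replicate 2 or GDF5 replicate 2 or 3 (0.0546 to 0.0638). The call of COX6A1 was lost without GDF5 replicate 2 (0.0568 from limma) and by limma-voom (0.238), that of COX7A2 by limma-voom too (0.178) and on leaving out any library other than control replicate 3 (0.0527 to 0.0934), and that of COX7C without any control or without GDF5 replicate 3 (0.0831 to 0.0981). COX7C was called lower by limma-voom (adjusted p 0.0420) and not in the authors' deposited table (0.145).

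Among the tissue isoforms, the forms known from many tissues were far above their partners. COX6A2, the heart and muscle form, was at 2.12, 1.92 and 1.17 RPKM in controls and 1.47, 1.01 and 1.09 with GDF5, against 6.60 to 7.92 for COX6A1, and its groups overlapped (limma adjusted p 0.164). COX7A1, the muscle form, was at 0.391, 0.605 and 0.640 in controls and 0.579, 0.467 and 0.566 with GDF5, against 23.6 to 27.6 for COX7A2. COX6B2, the testis form, was at 0.174, 0.143 and 0.0864 in controls and 0.0959, 0.0858 and 0.0892 with GDF5, against 62.6 to 71.4 for COX6B1, whose groups overlapped. COX8A was at 21.7, 25.3 and 22.2 RPKM in controls and 29.5, 21.4 and 21.5 with GDF5, with GDF5 replicate 1 above all others and the groups overlapping, and it shares 34.5% of its exon bases with another gene on the same strand. NDUFA4, once counted as complex I, was at 22.6, 24.1 and 21.6 in controls and 19.9, 21.3 and 23.5 with GDF5 with overlap (limma adjusted p 0.415), and its hypoxia-induced relative NDUFA4L2 was below 0.23 RPKM in every library. COX7A2L, which joins complexes III and IV in supercomplexes, was at 15.0, 15.9 and 14.8 RPKM in controls and 16.0, 16.1 and 16.6 with GDF5, just without overlap. It was not called as deposited (limma adjusted p 0.115). It was called higher after median-of-ratios scaling (log2 change 0.15, limma adjusted p 0.0281), by limma-voom (0.0118) and in the authors' deposited table (0.0101). After scaling the call was lost without control replicate 1 or 3 or GDF5 replicate 2 or 3 (0.0739 to 0.104 from limma).

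Complex V held calls in both directions. As deposited 2 of its 17 tested genes were called higher and 5 lower, with a median log2 change of -0.042; after median-of-ratios scaling 3 were higher and 2 lower and the median was 0.022. Both medians lay just above those of all tested genes, -0.050 and 0.0021. Among the F1 subunit genes, alpha to epsilon, 3 of 5 were called lower as deposited, against 17.5% of all genes, and 1 of 5 after scaling, against 9.96%. ATP5F1E, the epsilon subunit (ENSG00000124172; chromosome 20, 59025467 to 59032382), was at 41.2, 44.6 and 42.9 RPKM in control replicates 1 to 3 and 32.0, 35.4 and 35.2 in GDF5 replicates 1 to 3. All GDF5 values lay below all control values, and the mean fell by 20.3% (log2 change -0.32, 95% interval -0.43 to -0.21, limma adjusted p 0.00438; 0.0103 after median-of-ratios scaling). Exons of genes on the opposite strand overlap 23.2% of its exon bases.

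ATP5F1A, the alpha subunit, was at 20.8, 21.0 and 21.5 RPKM in controls and 18.3, 19.1 and 19.2 with GDF5. The mean fell by 10.7% with the groups apart (limma adjusted p 0.0132). The call was lost after median-of-ratios scaling (0.0656 from limma). Limma-voom called it lower (adjusted p 0.0267), and the authors' deposited table did not (0.0516). ATP5F1D, the delta subunit, was at 9.24, 7.08 and 8.79 in controls and 7.01, 6.05 and 5.70 with GDF5, where the lowest control, replicate 2, was just above the highest GDF5 library, replicate 1. Its call (log2 change -0.37, limma adjusted p 0.0375) was lost after median-of-ratios scaling (0.0656) and, as deposited, without control replicate 1 or 3 or GDF5 replicate 2 or 3 (0.106 to 0.111). ATP5F1B, the most abundant, had a log2 change of -0.042 (95% interval -0.14 to 0.054) and was not called.

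The peripheral stalk, which holds the F1 head still against the rotor, held genes called in opposite directions. ATP5PF, its F6 subunit (ENSG00000154723; chromosome 21, 25716503 to 25735673), was at 17.1, 17.6 and 16.0 RPKM in controls and 19.1, 20.0 and 20.7 with GDF5. Every GDF5 library was above every control, and the mean rose by 17.7% (log2 change 0.22, 95% interval 0.12 to 0.33, limma adjusted p 0.0129; 0.00584 after median-of-ratios scaling). Its exons overlap those of genes on the opposite strand, JAM2 and GABPA, over 23.1% of their bases, and GABPA itself differed by -0.091 on the log2 scale (limma adjusted p 0.123). ATP5PO, the subunit that confers oligomycin sensitivity, was at 2.45, 2.54 and 2.56 RPKM in controls and 1.85, 1.97 and 2.13 with GDF5, without overlap, from 360 reads per library (log2 change -0.24, limma adjusted p 0.0178; 0.0362 after median-of-ratios scaling). Its call was lost without control replicate 3 or GDF5 replicate 2 (0.0536 and 0.0617 from limma), and after that scaling without any library but GDF5 replicate 3 (0.0732 to 0.104), and 19.6% of its exon bases are shared with a gene on the same strand. ATP5PB, the b subunit, was at 35.6, 34.8 and 35.3 in controls and 31.4, 32.3 and 33.2 with GDF5, without overlap. Its mean fell by 8.31% (limma adjusted p 0.0258), a change that was not called after median-of-ratios scaling (0.182), by limma-voom (0.191) or, as deposited, without any control or without GDF5 replicate 2 (0.0516 to 0.0864).

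The rotor's c ring is encoded by 3 genes whose mature peptides are the same. ATP5MC1, named here after its values were seen, was at 6.62, 7.35 and 7.78 RPKM in controls and 8.22, 8.39 and 8.41 with GDF5, with no overlap. It was called higher (log2 change 0.18, limma adjusted p 0.0467; 0.0189 after median-of-ratios scaling). As deposited the call was lost without control replicate 1 or 2 or any GDF5 library (0.0720 to 0.123 from limma), and after scaling without GDF5 replicate 2 or 3 (0.0643 and 0.0631). ATP5MC2, also chosen after its values were seen, was at 26.4, 27.7 and 27.7 in controls and 28.7, 29.6 and 28.7 with GDF5 and was not called as deposited (limma adjusted p 0.0938). It was called higher after median-of-ratios scaling (limma adjusted p 0.0178), by limma-voom (0.0116) and in the authors' deposited table (0.00578). After scaling the call was lost without control replicate 1 or GDF5 replicate 2 or 3 (0.0526 to 0.0720 from limma). ATP5MC3 was not called, with a log2 change of -0.12 (limma adjusted p 0.0839). The 5 other membrane subunits held 0 limma calls under either scaling (1 was lower at an unadjusted p under 0.05 as deposited, and 0 were called by limma-voom), and ATP5MGL, a relative of the g subunit gene, was listed at 0 in 4 of 6 libraries.

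**Figure D3:**
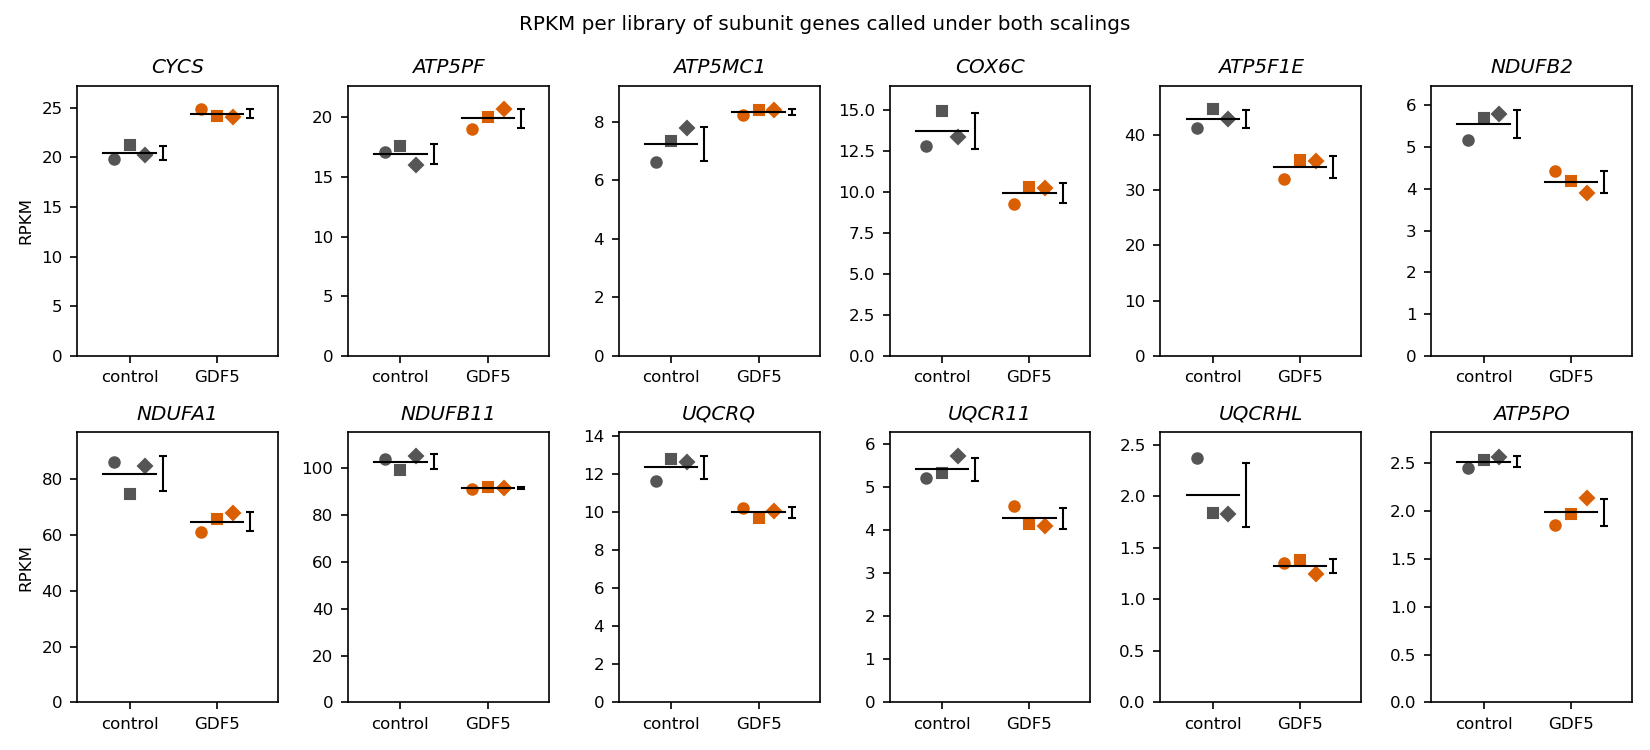
RPKM of the 12 subunit genes called under both scalings, in each of 3 control (grey) and 3 GDF5 (orange) libraries, with circles, squares and diamonds for replicates 1, 2 and 3, the mean (line) and SD (bar). Every axis starts at 0. CYCS, ATP5PF and ATP5MC1 are higher in every GDF5 library and the other 9 are lower in every GDF5 library.

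Levels were also summed over each complex, as deposited and after scaling. Complex I genes summed to 919, 949 and 965 RPKM in control replicates 1 to 3 and 870, 887 and 895 in GDF5 replicates 1 to 3. Complex III genes summed to 231, 243 and 240 RPKM in controls and 222, 221 and 216 with GDF5. As deposited both sums were lower in every GDF5 library. Complex IV genes summed to 397, 418 and 411 RPKM in controls and 369, 389 and 394 with GDF5, and complex V genes to 517, 536 and 530 against 500, 503 and 510, again without overlap. After median-of-ratios scaling the groups overlapped for all 4: complex I sums were 899, 932 and 940 in controls and 891, 908 and 912 with GDF5, and complex V means were 516 in both groups. Complex II was the one summed complex that was higher in every GDF5 library, at 66.1, 64.7 and 67.7 RPKM in controls and 70.5, 68.4 and 68.6 with GDF5 as deposited, and 64.7, 63.5 and 65.9 against 72.2, 70.0 and 70.0 after scaling. Such sums rest on their most abundant genes. Within groups, control replicate 1 was the lowest control for 42 of the 74 tested members, against 30.3% of all tested genes, and GDF5 replicate 1 was the lowest GDF5 library for 41, against 40.4%. No test between complexes was made, since their genes share the same 6 libraries.

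**Figure D4:**
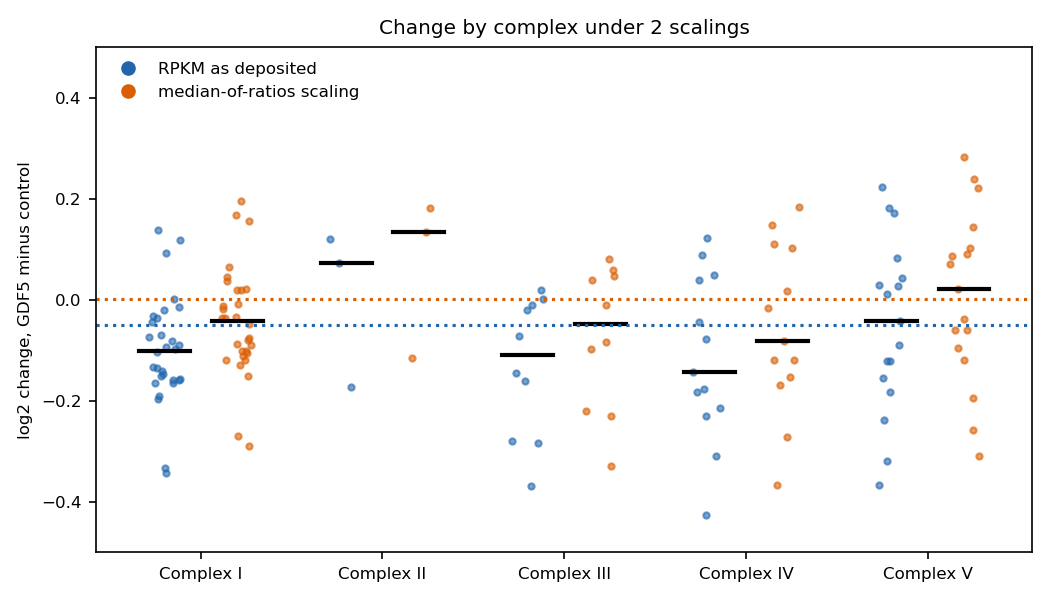
Log2 change, GDF5 minus control, of each tested gene of complexes I to V (points), with the median of each complex (black bar), as deposited (blue) and after median-of-ratios scaling (orange). Dotted lines give the medians of all tested genes, -0.050 and 0.0021. Medians of complexes I, III and IV lie below those lines under both scalings, that of complex II lies above, and that of complex V lies just above.

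The mitochondrial genome encodes the other subunits of complexes I, III, IV and V, and these transcripts were higher with GDF5. The nuclear genes of complexes I, III and IV had medians below 0 under both scalings. These medians were also below those of all tested genes, -0.050 as deposited and 0.0021 after scaling. Nuclear genes of complex V were split, 9 below 0 and 8 above as deposited, with a median of 0.022 after median-of-ratios scaling. Mitochondrial reads are part of the total that the deposited RPKM divides by. Of the 13 mitochondrial subunit genes 12 were called higher as deposited and 13 after median-of-ratios scaling, with a median log2 change of 0.36 and 0.42. MT-ATP8, a complex V subunit, was at 3012, 3107 and 2535 RPKM in controls and 5547, 5575 and 5112 with GDF5. For complex I, MT-ND6 changed by 0.72 and MT-ND5 by 0.36 on the log2 scale (limma adjusted p 0.000603 and 0.000823). These are values in the same libraries on the same scale, and no test of nuclear against mitochondrial genes was made.

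**Figure D5:**
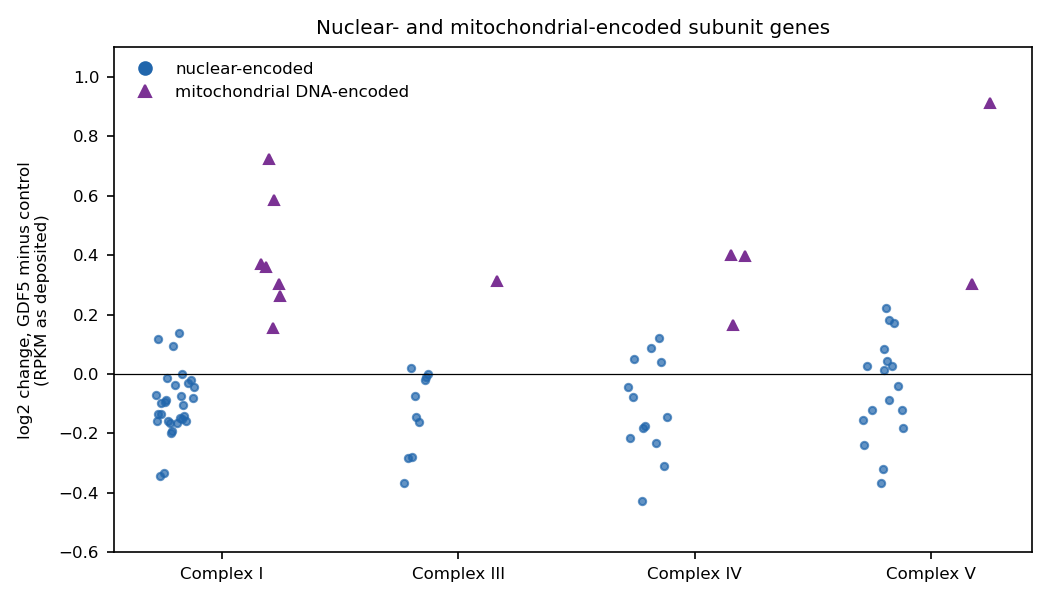
Log2 change as deposited, GDF5 minus control, of each tested nuclear subunit gene (blue circles) and of each mitochondrial DNA-encoded subunit gene (purple triangles) of complexes I, III, IV and V. All 13 mitochondrial genes lie above 0, whereas most nuclear genes lie below it, with a median of -0.10 for the nuclear genes of complex I. The median of all tested genes, which is not drawn, was -0.050. In complex V 9 nuclear genes lie below 0 and 8 above.

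Genes that assemble or regulate the complexes were followed in lists. Of 19 complex I assembly factors 1 was called higher and 4 lower as deposited, where 7.48% and 17.5% of all genes were, and 2 higher and 1 lower after median-of-ratios scaling. NDUFAF8, called lower under both, was at 13.6, 11.9 and 11.7 RPKM in controls and 8.16, 9.31 and 8.30 with GDF5 (log2 change -0.48, limma adjusted p 0.00341). NDUFAF2 was the one called higher (log2 change 0.21, limma adjusted p 0.0300), and TMEM186 was called lower (-0.27, 0.0326) but not after median-of-ratios scaling. For complex II 0 of 4 assembly factors were called by limma under either scaling or by limma-voom (as deposited 1 was lower at an unadjusted p under 0.05), and 1 of 5 for complex III was called lower, UQCC1 (-0.16, limma adjusted p 0.0281), which was not called after scaling. Of 19 tested complex IV factors 3 were called lower, led by SURF1, which acts in haem a insertion, at 6.11, 5.12 and 5.71 RPKM in controls and 4.28, 3.40 and 3.86 with GDF5 (log2 change -0.46, limma adjusted p 0.00794). The other 2, COX15 and COA6, were not called after scaling. Of 3 tested genes for ATP synthase assembly and inhibition, TMEM242 was called lower (-0.19, limma adjusted p 0.0169), and the inhibitor ATP5IF1 was not.

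Among 12 tested regulators of respiratory genes 2 were called as deposited, both higher, where 7.48% of all tested genes were called higher. PPARGC1A, the coactivator PGC-1α that acts with NRF1 and GABPA on these promoters, was at 3.34, 3.58 and 3.13 RPKM in control replicates 1 to 3 and 5.37, 5.62 and 5.42 in GDF5 replicates 1 to 3. The groups were far apart, with a log2 change of 0.57 and a limma adjusted p of 0.000374. MYC, a growth factor-responsive transcription factor, was at 30.4, 29.1 and 34.6 RPKM in controls and 37.1, 37.9 and 38.3 with GDF5 (log2 change 0.26, limma adjusted p 0.0193). NRF1 differed by -0.10 on the log2 scale (limma adjusted p 0.183) and TFAM, which packages mitochondrial DNA and starts its transcription, by -0.044 (0.390). Neither was called. Of the 14 TCA cycle genes 2 were called higher and 4 lower as deposited, and 4 higher and 1 lower after median-of-ratios scaling. The shares of all tested genes were 7.48% higher and 17.5% lower as deposited, and 12.9% and 9.96% after scaling. MDH2, mitochondrial malate dehydrogenase, was at 33.2, 34.8 and 37.1 RPKM in controls and 42.4, 41.1 and 40.9 with GDF5 (log2 change 0.24, limma adjusted p 0.00810). IDH2, an isocitrate dehydrogenase that makes NADPH, was at 52.3, 52.3 and 55.8 RPKM in controls and 45.4, 47.8 and 46.5 with GDF5 (log2 change -0.19, limma adjusted p 0.00996), and SUCLA2, of succinyl-CoA synthetase, was called lower as deposited (log2 change -0.22, limma adjusted p 0.0230) but not after scaling.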

How the data were processed

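RNA was sequenced in 6 libraries, 3 per group, grouped by their titles. Per the labels' protocols, TRIzol-extracted total RNA went into Illumina libraries that keep strand. HISAT2, DESeq2 and GRCh38 are named in the submitters' processing notes, without versions; the read counter, its strand setting and its annotation are not given in the sources used. The header names no unit for the values per library, and the values showed that the authors deposited RPKM (reads scaled to exon length and to the total in genes). The authors also deposited a mean signal per group (reads over size factors), a log2 fold change, and raw and adjusted p-values, per the file headers.

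The reads behind the RPKM were recovered from the deposited columns: of the values below 20 reads, all 64583 were whole to within 0.1, and 63.7% were even, so mates of a pair may have been counted singly. They gave the depth and fed limma-voom, an alternative only. Of the gene identifiers 96.9% were in GENCODE 29, which gave coordinates and overlaps. For some members the length implied by the RPKM differed from the GENCODE exon length. It was 1902 against 14160 bases for SDHC and 8223 against 1815 for NDUFA12. For such genes the overlaps may not hold for the exons that were counted. Genes with a mean of at least 1 RPKM were compared as log2(RPKM + 1) in R 4.3.3 by limma 3.58.1 (two-sided, variance trend on intensity), with Benjamini-Hochberg adjustment over all 12476 tested genes and calls under 0.05. This scale understates changes of low genes, and intervals are at 95%. The test was tried on simulated data first. Median-of-ratios scaling divided each library by the median ratio of its RPKM to the geometric mean over libraries.

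The members, lists and tests were chosen with earlier results of these data known. Members were named by a rule: in each complex up to 6 members with the smallest adjusted p under 0.05, the member with the highest mean RPKM, the isoform pairs of complex IV, NDUFA4 with NDUFA4L2, COX7A2L, SDHA to SDHD, CYC1 and CYCS, and from each list up to 3 called genes. The alternatives were another pseudocount, no or a higher level filter, median-of-ratios scaling, a replicate block, limma-voom, no intensity trend, a stricter threshold, leaving out each library, and 4 added after seeing the data: the scaling with the block, the scaling with each library left out, the scaling of summed levels, and only members that share no bases with other genes.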

Additional observations from a re-analysis of the deposited data

How the results depend on the processing

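The counts of calls moved with the scaling and with single libraries more than the directions did. Median-of-ratios scaling gave 8 members higher and 9 lower, with 1 higher in complex I, 2 in complex II and 1 in complex IV, 1 lower in complex IV and 2 in complex V; medians moved to -0.036 (members), -0.042 (complex I), 0.13 (II), -0.047 (III) and -0.083 (IV), and that of complex V was 0.022, while the median of all genes moved from -0.050 to 0.0021. Limma-voom gave 9 members higher, 2 of complex I, 2 of complex II and 1 of complex IV among them. It gave 15 members lower, among them 4 of complex IV and 4 of complex V. Its medians were -0.048, -0.058, 0.13, -0.056 and -0.093 for all members and complexes I to IV. For complex V the median was 0.015, and for all genes it was -0.0044. Under both, the sign of the complex V median changed as the median of all genes moved by a like amount. With no filter, which adjusts over more genes, 1812 genes were called in all, 9 members lower, 2 of complex IV and 2 of complex V lower and 1 of complex V higher, and 14 list genes against 36; medians of complexes II and IV were 0.027 and -0.077. At a mean RPKM of at least 5, 1 complex II gene was called lower, and medians of complexes III and V were -0.047 and -0.015. An adjusted p under 0.01 left 1285 genes, 1 member higher and 7 lower, with 1 lower in complex IV, 1 lower and 0 higher in complex V, and 19 list genes. Without the intensity trend 1 complex V gene was higher. Among members sharing no bases with other genes, an alternative chosen after seeing the data, 6 were lower and the median was -0.043.

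Leaving out 1 library at a time gave 1760 to 3099 genes in all, 11 to 19 members lower and 2 to 4 higher, 0 to 1 higher in complex I and in complex IV, 2 to 5 lower in complex IV, 1 to 2 higher and 2 to 5 lower in complex V, and 21 to 30 list genes. Medians ran from -0.13 to -0.073 in complex III and from -0.068 to -0.019 in complex V. The fewest members were lower without GDF5 replicate 2. With median-of-ratios scaling as well, chosen after seeing the data, 2 to 11 members were higher and 5 to 10 lower, with medians of -0.053, -0.033 and -0.052 without control replicates 1 to 3 and -0.035, -0.041 and -0.048 without GDF5 replicates 1 to 3; the 11 came without GDF5 replicate 1.

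Deviations of same-numbered libraries from their group means correlated at -0.037, 0.057 and -0.031, so no strong shared deviation was seen. The labels do not say whether the replicate numbers mark pairs, and such correlations cannot settle it. A replicate block gave 2167 genes, 2 members higher and 15 lower, with 1 of complex V higher; with median-of-ratios scaling too it gave 5 higher and 8 lower and a median of -0.036. Over the genes and lists described singly and all alternatives, 746 values kept their side of the threshold or, for list counts, stayed within 1.5 times, 160 lost a call, 30 gained one, 74 list counts moved by over 1.5 times and no call turned direction. Depth limited little here, apart from low genes such as COX6A2, with 35 reads per library.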
